A study of Danio rerio with 12 samples.

Results

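The genes described here are 5 markers of the embryonic midline, read in fluorescence-sorted cells of whole zebrafish (Danio rerio): cmn, emilin3a, shha, shhb and ntla. They were chosen by name from the 32312 features that each of the 6 tables of the series lists, after earlier results of the same tables were known, and all 5 were found in every table. The notochord is the rod of mesoderm under the neural tube that stiffens the fish embryo and signals to the tissues around it, and the floor plate is the strip of neural tube cells above it. Both secrete Sonic hedgehog, which patterns the ventral neural tube and the somites. Large vacuolated cells fill the notochord, and a sheath of collagen and other matrix proteins encloses it.

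Each experiment sorted the cells of dissociated embryos or larvae that carried a transgene meant to mark catecholaminergic cells, the makers of dopamine and noradrenaline, into 1 GFP-positive and 1 GFP-negative library, 12 libraries in all. At 24 h after fertilization the lines were ETvmat2:GFP, an enhancer trap that at this age marks neurons of the posterior tuberculum and locus coeruleus, and Tg(otpb.A:egfp)zc48, whose enhancer marks some preoptic neurons besides the dopaminergic ones of the ventral diencephalon. At 36 and 48 h a th:Gal4VP16 driver with a UAS:EGFP responder was used, and at 72 and 96 h a th:GFP BAC line. Tyrosine hydroxylase, the product of th, makes the precursor of dopamine. The GFP-negative cells of each pair carried the same transgene, and no library came from fish without one. Per the submitters' design text, the 24 h lines also label cells of other kinds at later ages. The 24 h libraries were made by NanoCAGE, which reads capped 5′ ends, and the others by sequencing of amplified polyadenylated RNA.

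Each group is 1 library, so no test between groups is possible: every interval covers counting error only, and every difference is between those libraries. The intervals also take reads as independent, which amplified reads are not, so they are too narrow. Reads in exons numbered 495373 to 1367216 in the NanoCAGE libraries, 21326333 to 27682819 at 36 and 48 h, and 52869 to 79653 at 72 and 96 h. Outside the vmat2 experiment the reads were recovered from the authors' deposited table of differences and fold changes, with the direction that its heading and the vmat2 table give; a table made the other way round would turn its directions. Levels are CPM, a gene's exon reads scaled to the total exon reads of its library. Log2 ratios divide the GFP-positive by the GFP-negative library after TMM scaling, which corrects for a few abundant genes, with a prior count of 2. Intervals, and ratios of reads summed over genes, are made without the prior count. At low counts a gene's ratio thus lies nearer 0 than the reads alone would put it, and off the middle of its interval. Scaling on library size alone would add 0.63 to log2 ratios of the vmat2 experiment, 0.43 for otpb and 0.14 at 48 h, and take 0.74 off at 36 h, so the library size value is given where it matters. In dissociated whole embryos, fewer cells of a type and less RNA per cell cannot be told apart.

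In the otpb experiment the 4 members with more than 1 read were higher in the GFP-positive library, and in the vmat2 experiment, of equal age and assay, all 4 had lower levels there, though the 4 reads of ntla do not settle its direction. Summed over the 5 genes, the GFP-positive libraries held 1270 CPM for otpb and 22.9 CPM for vmat2, against 106 and 95.4 CPM in their GFP-negative libraries. At 36 and 48 h the members were rare, with summed levels of 11.9 and 21.9 CPM in the GFP-positive libraries and 27.0 and 21.7 CPM in the GFP-negative libraries. At 72 h 4 reads stood against 3 over all members, and at 96 h no member had a read.

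**Figure D1:**
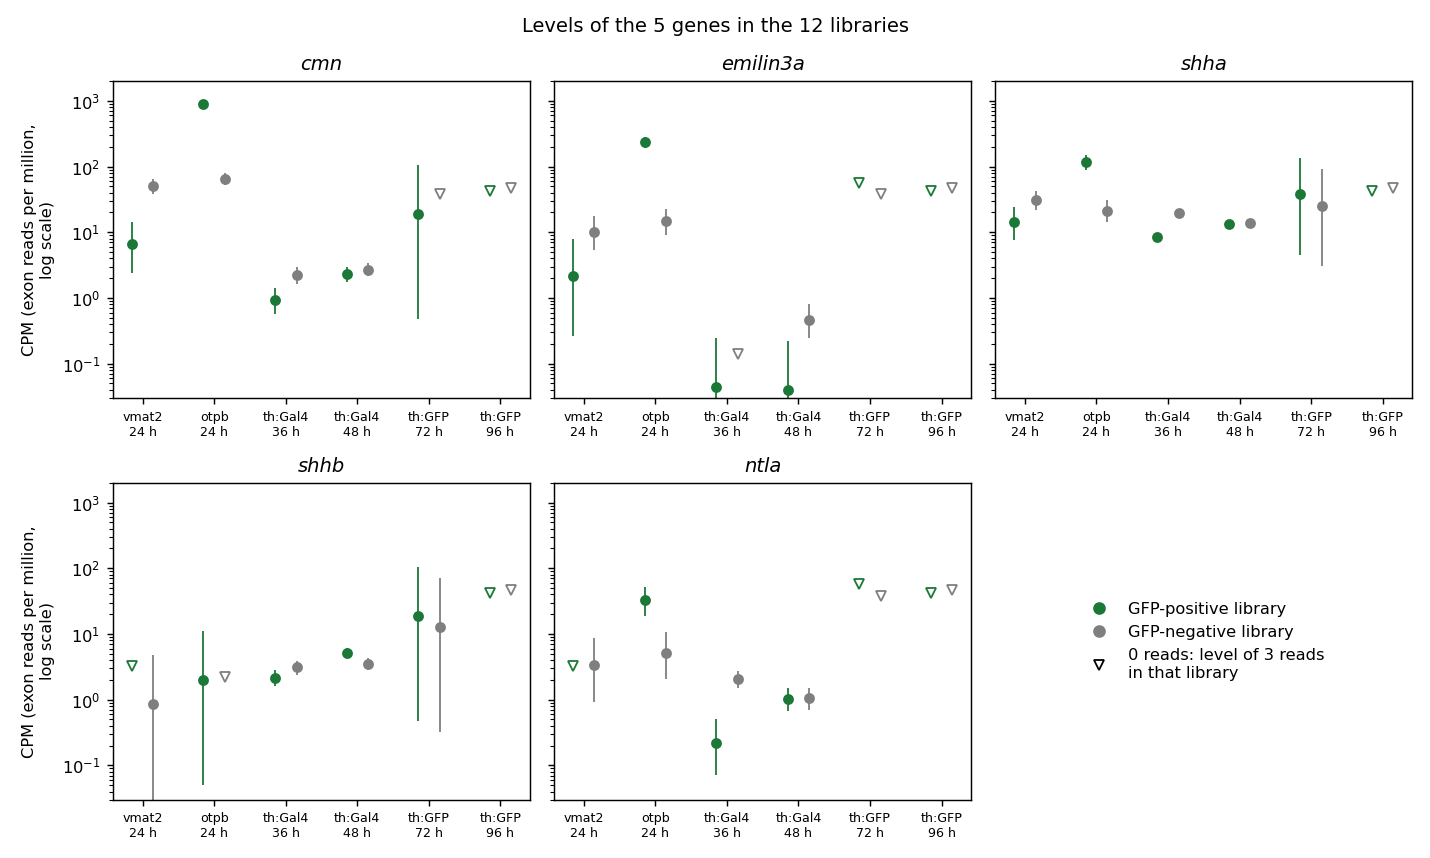
Level of each gene in the 12 libraries (y axis, CPM on a log scale; x axis, experiment and age), with GFP-positive libraries in green to the left of GFP-negative libraries in grey, 1 library a group, and exact 95% Poisson intervals that cover counting error only. Open triangles mark libraries with 0 reads, drawn at the level of 3 reads; the otpb GFP-positive library holds the highest cmn level, 890.2 CPM.

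The matrix gene cmn encodes Calymmin, a protein of the zebrafish notochord sheath. It lies on chromosome 12, 14224584 to 14270293 on Zv9, the build named in the sheet titles. In the otpb experiment it had 441 reads (890.2 CPM, interval 809.1 to 977.3) in the GFP-positive library, against 89 (65.1 CPM, interval 52.3 to 80.1) in the GFP-negative library. That is a log2 ratio of 3.30 (interval 3.01 to 3.69), or 10.1-fold without the prior count. In the vmat2 experiment it had 6 reads (6.53 CPM) in the GFP-positive library, against 59 (50.3 CPM, interval 38.3 to 64.8) in the GFP-negative library. The log2 ratio there was -3.17 (interval -5.08 to -2.37). The GFP-negative levels of the 2 experiments, each scaled on its own library, had overlapping intervals, while the GFP-positive levels lay far apart.

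At 36 h cmn had 21 reads in the GFP-positive library, against 47 in the GFP-negative library, with a log2 ratio of -0.48 (interval -1.33 to 0.26). The same ratio was -1.18 with library size scaling. At 48 h there were 58 against 75 reads (-0.35, interval -0.88 to 0.15). With TMM scaling neither interval leaves out 0, but library size scaling would shift the 36 h interval by -0.74, so that result depends on the scaling. All 4 levels lay between 0.922 and 2.71 CPM.

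The gene emilin3a (chromosome 8, 23815759 to 23819450) encodes a secreted glycoprotein of the EMILIN family, which is named for its place between elastin and microfibrils. For otpb it had 115 reads (232.1 CPM) in the GFP-positive library, against 20 (14.6 CPM) in the GFP-negative library. The log2 ratio was 3.39 (interval 2.86 to 4.32), close to that of cmn. For vmat2 there were 2 reads against 12, a log2 ratio of -2.0 (interval -6.06 to -0.69). It was nearly absent from the deepest libraries, with 1 read against 0 at 36 h. At 48 h 1 read stood against 13 (-2.32, interval -9.10 to -0.95), a difference of 0.04 against 0.47 CPM.

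The ligand gene shha (chromosome 7, 43613639 to 43620963) encodes Sonic hedgehog a, made by notochord and floor plate and, later, by ventral forebrain, gut and fin bud cells. For otpb it had 58 reads (117.1 CPM) in the GFP-positive library, against 29 (21.2 CPM) in the GFP-negative library, with a log2 ratio of 1.94 (interval 1.36 to 2.73). For vmat2 it had 13 reads (14.2 CPM) against 36 (30.7 CPM), with a log2 ratio of -1.59 (interval -2.79 to -0.80). Its ratios at 24 h were thus of the same sign as those of the matrix genes. For otpb its ratio was smaller, while for vmat2 its interval overlapped those of cmn and emilin3a.

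At 36 h shha had 194 reads (8.52 CPM) in the GFP-positive library, against 419 (19.7 CPM) in the GFP-negative library. The log2 ratio was -0.46 (interval -0.72 to -0.21), and -1.20 with library size scaling. At 48 h the counts were 333 (13.3 CPM) and 388 (14.0 CPM), with a log2 ratio of -0.21 and an interval that includes 0 (-0.43 to 0.01). At 72 h each library had 2 reads, and at 96 h neither had any, where 3 reads would be 42.5 CPM in the GFP-positive and 47.1 CPM in the GFP-negative library, and the exact upper limits of 0 reads are 52.3 and 58.0 CPM.

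The second ligand gene, shhb (chromosome 2, 29765373 to 29770264), first named tiggy-winkle hedgehog, is a zebrafish duplicate of shha known from the floor plate and ventral brain. It was all but unread at 24 h, with 1 read against 0 for otpb and 0 against 1 for vmat2, so no fold is given. At 36 h it had 49 reads (2.15 CPM) in the GFP-positive library, against 66 (3.10 CPM) in the GFP-negative library. The log2 ratio of 0.21 (interval -0.35 to 0.77) was -0.51 with library size scaling, so its sign depends on the scaling. At 48 h it had 129 reads (5.16 CPM) against 96 (3.47 CPM), with a log2 ratio of 0.43 (interval 0.04 to 0.83) and of 0.56 with library size scaling. Of the 5 genes it alone had a 48 h interval that lies above 0, though its lower limit of 0.04 is close to 0.

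The transcription factor gene ntla (chromosome 19, 30633857 to 30637909), the zebrafish no tail gene, is a Brachyury T-box gene needed for the notochord and the tail, and is also expressed in the tail bud. For otpb it had 16 reads (32.3 CPM) in the GFP-positive library, against 7 (5.12 CPM) in the GFP-negative library, with a log2 ratio of 1.87 (interval 0.86 to 3.75). For vmat2 there were 0 reads against 4, at least 1.62-fold lower when the empty library is put at 3 reads. The exact interval there reaches above 0 (0.32), so that count does not settle a direction. At 36 h it had 5 reads (0.22 CPM) against 44 (2.06 CPM), with a log2 ratio of -2.18 (interval -4.18 to -1.16). At 48 h the counts were 26 and 29, with a log2 ratio of -0.14 (interval -0.97 to 0.67).

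**Figure D2:**
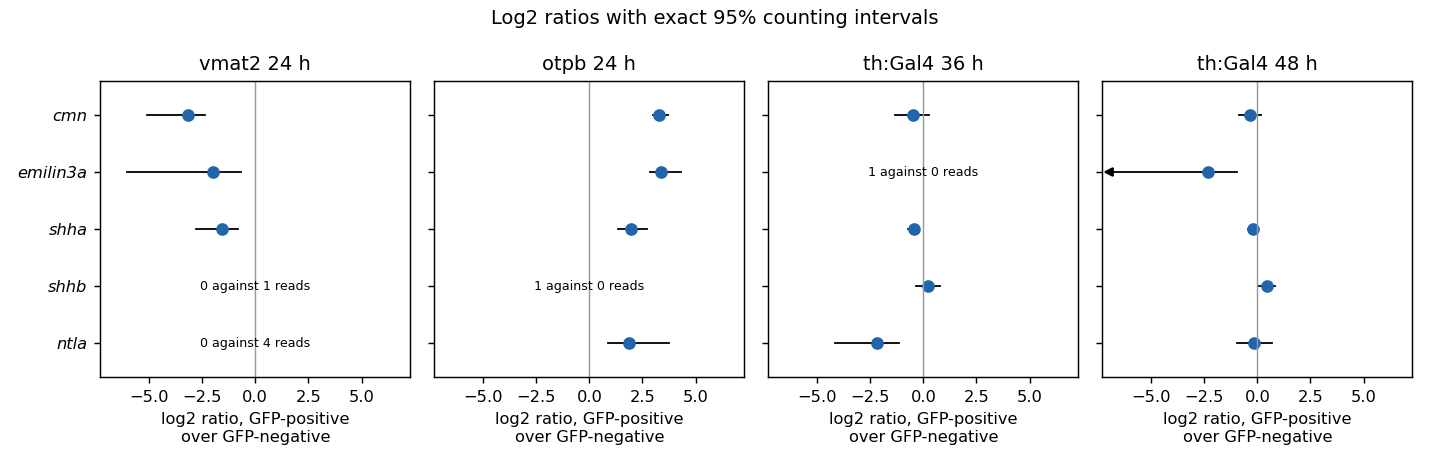
Log2 ratio of GFP-positive over GFP-negative reads (x axis) for each gene (y axis) in the experiments at 24, 36 and 48 h; points are TMM-scaled ratios and lines are exact 95% counting intervals, 1 library a group. Counts are written out where a library had 0 reads and an arrow marks an interval running past the axis; cmn, emilin3a and shha lie right of 0 for otpb and left of 0 for vmat2.

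To set these values against all genes, a minimum of 20 reads and 5 CPM was asked of the library with the higher level. In the otpb experiment cmn, emilin3a and shha passed it, and 2 of these 3 were at least 4-fold higher, as were 2.64% of the 4666 genes that passed, while 7.37% were as far below. By log2 ratio emilin3a ranked 27th and cmn 32nd from the top, or from the bottom had the table been made the other way round. Shha was just short of 4-fold, and passed it with library size scaling (log2 ratio 2.35) or without the prior count (4.09-fold). In the vmat2 experiment cmn and shha passed, and cmn was at least 4-fold lower, as were 3.47% of 6303 genes, while 11.2% were as far above. At 36 h only shha passed, and it was within 4-fold in a table where 5.53% of 9935 genes lay 4-fold or more above the GFP-negative library and 1.72% as far below. At 48 h shha and shhb passed and both were within 4-fold, where 9.21% of 10030 genes were past it upwards and 1.22% downwards. No member passed at 72 h, where 1.93% of 415 genes were past 4-fold upwards and 9.64% downwards, or at 96 h, where 0 and 0.877% of 456 genes were. The genes were picked with the otpb values in view, so these shares are read as description only.

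Levels of different genes were compared per exon length in the polyadenylated RNA libraries. This takes reads to come from along whole transcripts, which was not checked in these amplified libraries. In the 36 h GFP-positive library shha stood at 3.33 CPM per kilobase of exon, followed by shhb (1.07), cmn (0.22), ntla (0.10) and emilin3a (0.02). The counting intervals of the last 3 overlap from neighbour to neighbour. In the 36 h GFP-negative library the order was shha (7.69), shhb (1.53), ntla (0.93), cmn (0.52) and emilin3a (0), and the neighbours shhb and ntla, and ntla and cmn, overlapped. At 48 h the order was shha, shhb, cmn, ntla and emilin3a in each library, with shha at 5.21 in the GFP-positive and 5.48 in the GFP-negative library. There cmn and ntla overlapped in both libraries. On this scale the ligands stood above the sheath genes at these ages. At 24 h cmn took the most reads of the members in each library except the vmat2 GFP-positive library, where shha had 13 and cmn 6, but 5′ end reads are not scaled by length.

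**Figure D3:**
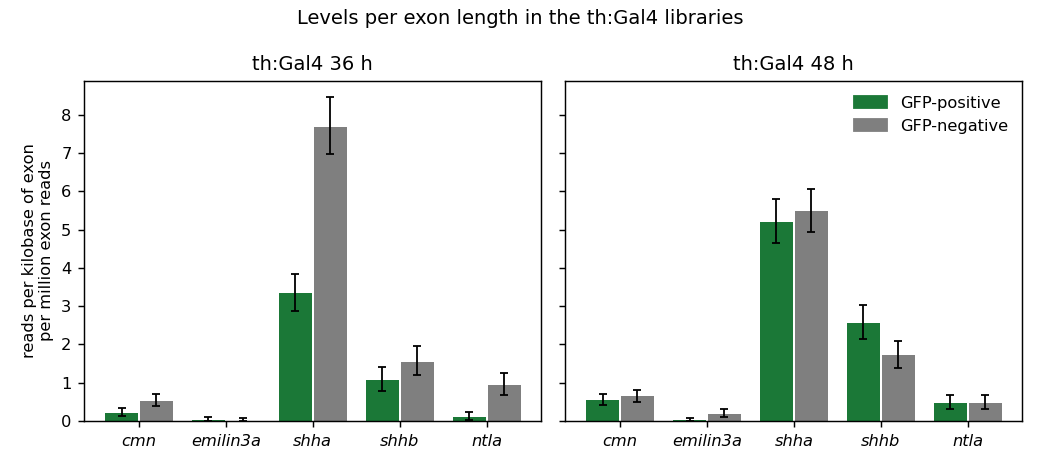
Levels per exon length (y axis, CPM per kilobase of exon, the RPKM scale) of the 5 genes (x axis) in the th:Gal4 libraries at 36 and 48 h, GFP-positive in green left of GFP-negative in grey, with exact 95% Poisson intervals of counting error. The shha bars are the tallest in all 4 libraries, from 3.33 to 7.69.

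The balance of the duplicate ligand genes differed between libraries. Per exon length, shha was 3.13-fold above shhb (interval 2.28 to 4.37) in the 36 h GFP-positive library, and 5.01-fold (3.86 to 6.6) in its GFP-negative partner. In the 48 h pair it was 2.04-fold above (1.66 to 2.52) in the GFP-positive and 3.19-fold (2.55 to 4.03) in the GFP-negative library. The point value was lower in the GFP-positive library at both ages, and the intervals overlap at 36 h and not at 48 h. The 48 h limits that face each other, 2.52 and 2.55, lie close together. These ratios within a library do not depend on scaling. Duplicate genes can share reads, and how many reads were unique was not analysed here for these libraries.

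Other notochord genes were read from a fixed set of markers: flh (floating head, a homeobox gene), the fibrillar and associated collagen genes col2a1a, col9a1 and col9a2, col8a1a, and foxa2, a forkhead gene of notochord and floor plate. Together these 6 genes had 808 reads (1630 CPM) in the otpb GFP-positive library, against 611 (447 CPM) in the GFP-negative library, a log2 ratio of 1.43 (interval 1.28 to 1.59). In the vmat2 experiment they had 85 reads (92.6 CPM) against 327 (279 CPM), a log2 ratio of -2.22 (interval -2.58 to -1.87). Col9a1 had 322 against 189 reads for otpb (1.79, interval 1.54 to 2.07) and 31 against 100 for vmat2 (-1.89, interval -2.60 to -1.37). Col2a1a, also a cartilage gene, had 246 against 231 for otpb (1.11, interval 0.86 to 1.39) and 29 against 133 for vmat2 (-2.39, interval -3.11 to -1.89). Col9a2 had 180 against 160 for otpb (1.19) and 17 against 79 for vmat2 (-2.35). Col2a1a, col9a1 and col9a2 gave most reads of the sums in both experiments, so the sums are weighted to these collagens. Col8a1a had 53 against 30 for otpb (1.76, interval 1.18 to 2.55) and 0 against 13 for vmat2, at least 5.25-fold lower with the empty library put at 3 reads (log2 interval up to -1.88).

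The regulators were rarer and less uniform. Foxa2 had 5 reads against 1 for otpb and 8 against 2 for vmat2, where its log2 ratio of 1.14 had an interval from -0.60 to 5.00. Flh had 2 against 0 for otpb and no read in either vmat2 library. At 36 h flh had 46 reads against 24, with a log2 ratio of 1.49 (interval 0.84 to 2.36). The 48 h counts were 121 against 37, with a ratio of 1.67 (interval 1.18 to 2.29). The same marker set summed to 0.07 (interval -0.06 to 0.19) at 36 h and to -0.56 (interval -0.67 to -0.44) at 48 h. Flh is also expressed in the pineal organ, and no pineal markers were read here.

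**Figure D4:**
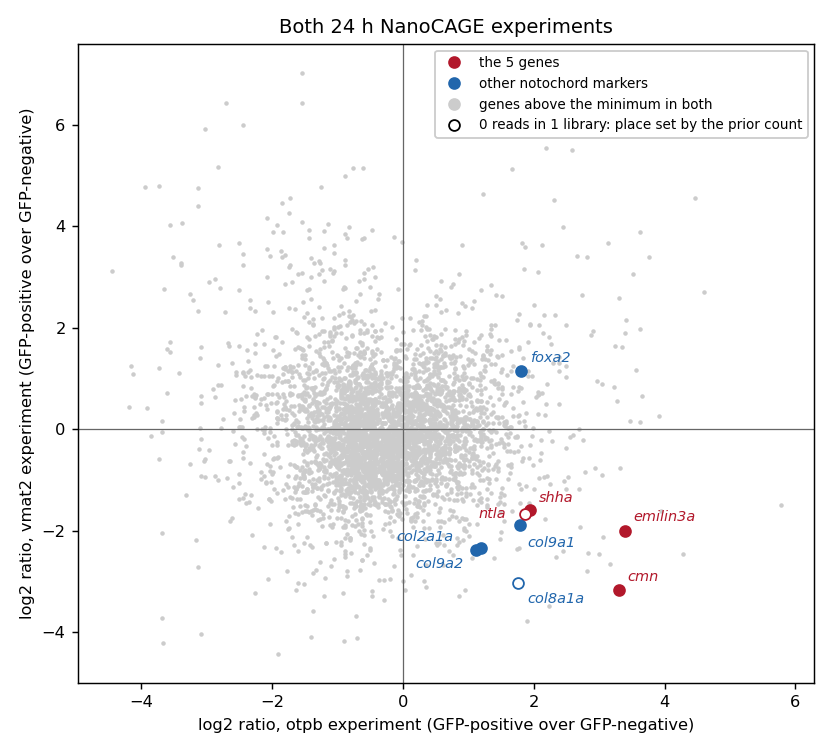
Log2 ratios, GFP-positive library over GFP-negative library, for otpb (x axis) and vmat2 (y axis) at 24 h, each with its own GFP-negative library; red, members, blue, other notochord markers, grey, genes above the minimum in both. Members and markers with 3 or fewer reads in an experiment (shhb and flh) are left out, open points had 0 reads in 1 library, and cmn lies at 3.30 and -3.17.

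A wider list of 33 matched notochord-associated genes, most of them also used in other tissues, held basement membrane, coat protein and caveolar genes besides. For otpb 22 passed the minimum, 7 of them 2-fold or more above the GFP-negative library and 1 as far below (10.2% and 25.8% of all genes), and their median was 0.66 beside -0.44 over all genes. For vmat2 21 passed, 3 of them 2-fold or more above and 10 as far below (24.9% and 15.7% of all genes), and their median was -0.89 beside 0.10 over all genes. Its summed reads gave a log2 ratio of 0.64 (interval 0.56 to 0.71) for otpb. For vmat2 the sum gave -0.22 (interval -0.30 to -0.14), and 0.41 with library size scaling, so its direction there depends on the scaling. Col11a2, a fibrillar collagen gene, was the listed gene past 4-fold for otpb, with 183 reads against 77 (2.24, interval 1.89 to 2.68), and had 2 against 37 for vmat2 (-3.49, interval -7.58 to -2.53). The caveolin gene cav1, used in many tissues, was at least 4-fold higher at 36 h (2278 against 478 reads, 2.89) and at 48 h (1529 against 252, 2.60). Ntd5 had 18 against 218 reads at 36 h (-2.85, interval -3.73 to -2.26). The abundant coat protein genes copa and copb1 had otpb ratios of 0.01 and -0.02.

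Floor plate genes, without the members, had 730 reads against 920 for otpb, a log2 ratio of 0.70 (interval 0.56 to 0.84), and 333 against 1011 for vmat2, a log2 ratio of -1.88 (interval -2.06 to -1.70). Mdka, a midkine growth factor gene used widely in neural tissue, was lower in both experiments, with 137 against 436 reads for otpb (-0.63, interval -0.93 to -0.36) and 120 against 604 for vmat2 (-2.59, interval -2.9 to -2.32). It thus gave 604 of the 1011 vmat2 GFP-negative reads. Col9a1, which this list shares with the notochord list, gave 322 of the 730 otpb GFP-positive reads and 189 of the 920 GFP-negative reads. Both sums are therefore weighted to single genes. Gene by gene, 6 passed the minimum for vmat2, none 2-fold above the GFP-negative library and 5 as far below (24.9% and 15.7% of all genes). Their median was -1.53 beside 0.10 over all genes. For otpb 5 passed, 1 of them 2-fold or more above and none as far below (10.2% and 25.8% of all genes). The otpb median was 0.68 beside -0.44. Nkx6.1, a homeobox gene of the ventral neural tube, had 18 reads against 4 for otpb (2.56, interval 1.60 to 5.22) and 8 against 7 for vmat2. At 36 h it had 575 against 1693 (-0.91, interval -1.05 to -0.77).

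The other genes of Hedgehog signalling mostly had ratios nearer to 0 than shha at 24 h. Of 24 matched genes for other ligands, release, receptors and transducers, 13 passed the minimum for otpb. None was 2-fold above the GFP-negative library and 4 were 2-fold or more below it (10.2% and 25.8% of all genes). Their median was -0.51 beside -0.44 over all genes. For vmat2 15 passed, with none 2-fold above and 3 by 2-fold or more below (24.9% and 15.7% of all genes). With TMM scaling 12 of the 15 were lower, 1 of them, boc (-2.52), by at least 4-fold (3.47% of all genes). The median of the 15 was -0.71 beside 0.10. The summed reads gave -0.24 for otpb and -0.57 for vmat2, with library size values of 0.19 and 0.06, so neither sum keeps its direction. Smo, the transducer Smoothened, had 30 against 58 (0.08, interval -0.61 to 0.74) for otpb and 52 against 80 (-0.87, interval -1.43 to -0.38) for vmat2.

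At 48 h all 15 pathway genes that passed were lower in the GFP-positive library, 6 of them by 2-fold or more, and their median was -0.78 beside -0.08 over all genes. Of all 10030 genes 53.7% were lower, 6.53% were so by 2-fold or more, and 17.6% were as far above. Smo had 1020 reads against 2141 (-1.06, interval -1.17 to -0.95). At 36 h 14 of 16 were lower, 2 by at least 2-fold (median -0.41 beside -0.09), where 54.5% of all 9935 genes were lower, 10.4% were by 2-fold or more, and 13.9% were as far above. The 12 textbook target genes had medians of -0.19 at 36 h and -0.93 at 48 h, over 10 that passed at each age. Their summed reads gave -0.33 at 36 h and -0.85 at 48 h, but -1.08 and -0.71 with library size scaling. The pathway sums were -0.38 and -0.77, but -1.12 and -0.64 with library size scaling. Which age lay lower therefore depends on the scaling. With library size scaling the median over all genes was -0.82 at 36 h and 0.06 at 48 h.

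Genes of the tail bud, where ntla is also expressed, were mixed. The list of 27 genes summed to 263 reads against 324 for otpb (0.73, interval 0.49 to 0.97) and 156 against 312 for vmat2 (-1.28, interval -1.56 to -1.0). Of the 263 reads 46 were of msgn1 and 71 of hoxc13a. For otpb 4 listed genes passed the minimum, 2 of them 2-fold or more above the GFP-negative library and 1 as far below (10.2% and 25.8% of all genes). Cyp26a1, which passed, had 9 against 30 reads (-0.63, interval -1.97 to 0.41). In the otpb experiment msgn1, a bHLH gene of presomitic mesoderm, had 46 reads against 15 (2.45, interval 1.78 to 3.6), and hoxc13a, a Hox gene of the tail end, 71 against 0, at least 48.4-fold higher with the empty library put at 3 reads (log2 interval from 5.26 up). In the vmat2 experiment msgn1 had 0 against 8, at least 3.23-fold lower on the same footing (log2 interval up to -1.05), and hoxc13a 15 against 38 (-1.49, interval -2.59 to -0.72). Bmp4, a growth factor gene of many tissues, had 16 reads against 0 for otpb and 48 against 4 for vmat2 (2.83, interval 1.86 to 5.24). The 7 defining tail bud markers, ntla among them, summed to 111 reads against 228 for otpb, a log2 ratio of -0.01 (interval -0.35 to 0.33), and all 7 had reads in each library. Msgn1 and ntla, both among the 7, were higher for otpb, so the other markers together were lower. For vmat2 the 7 markers summed to 16 against 129 (-3.29, interval -4.14 to -2.53), with ntla, msgn1, eve1 and wnt8a at 0 in the GFP-positive library. Tbx6, a presomitic T-box gene, had 5 against 122 reads at 36 h (-3.6) and 28 against 267 at 48 h (-3.15). The ntla ratios at these ages were -2.18 and -0.14. Over the whole list the 36 h sum was 0.02 (interval -0.09 to 0.12), and -0.73 with library size scaling. Of 7 listed genes that passed the minimum at 36 h, 3 were higher and 4 lower, where 54.5% of all genes were lower. The 7 defining markers summed to -1.34 there (interval -1.7 to -1.0).

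Genes of the hatching gland, which derives from the prechordal plate at the front end of the midline mesoderm, were higher in the GFP-positive library of both 24 h experiments. The 10 listed genes had 937 reads against 347 for otpb (2.46, interval 2.29 to 2.65) and 911 against 123 for vmat2 (2.61, interval 2.34 to 2.9). The hatching enzyme gene he1a had 156 against 56 for otpb and 206 against 9 for vmat2. The sum had the same sign in both 24 h lines, while cmn, emilin3a and shha had opposite signs. Cap1, listed there but known as an actin-binding protein gene of many cells, went apart from the others for otpb (11 against 124).

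**Figure D5:**
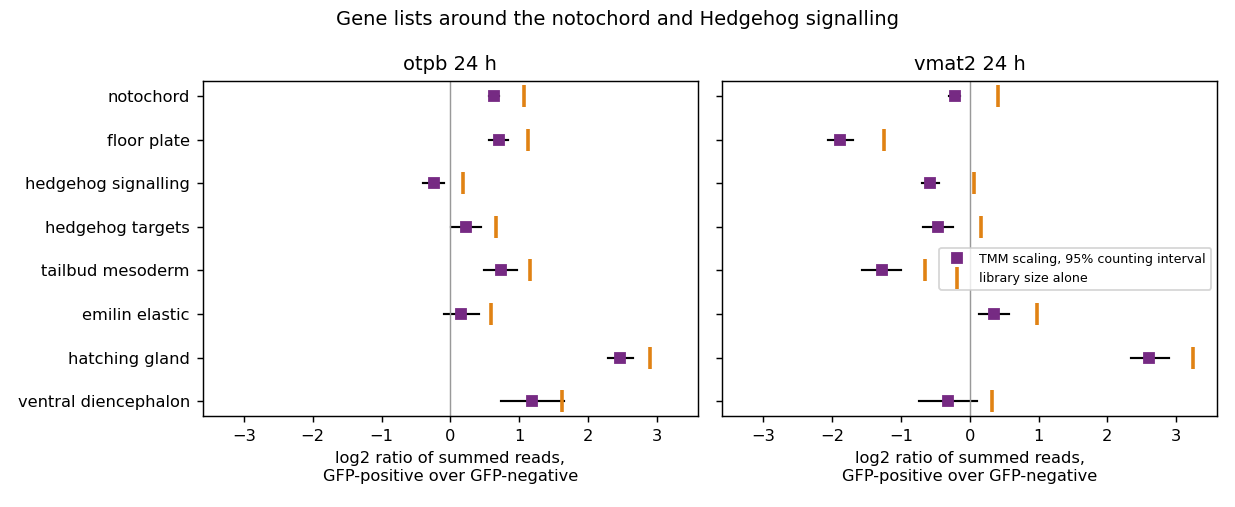
Log2 ratio of reads summed over each gene list (x axis) for otpb (left) and vmat2 (right); squares are TMM-scaled values with exact 95% counting intervals, 1 library a group, and orange ticks are the values with library size scaling. Floor plate genes sit at 0.70 for otpb and -1.88 for vmat2, and hatching gland genes at 2.46 and 2.61.

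The label of the sorted cells was read beside these results. The catecholaminergic markers th, th2, ddc, dbh, slc6a3 and slc18a2 had 6 reads against 0 for otpb (12.1 CPM in the GFP-positive library) and 24 against 0 for vmat2 (26.1 CPM), with th2, ddc, dbh and slc6a3 at 0 in all 4 libraries. The 10 notochord markers, 4 members among them, stood at 2900 CPM in the otpb GFP-positive library, against 553 CPM in its GFP-negative library. The members were picked with the otpb values in view. Without them the other 6 markers, whose sum is weighted to collagen genes, stood at 1630 against 447 CPM. Ventral diencephalic markers, of an area where shha is also expressed, had 13 reads against 21 over 5 genes for otpb, a log2 ratio of 0.34 whose interval (-0.78 to 1.40) includes 0. The otpb gene itself, 1 of these markers, had 5 reads against 10 in that experiment (0.02, interval -1.87 to 1.71). The wider list of 14 such genes had 87 reads against 78 for otpb (1.19, interval 0.73 to 1.65), and 96 against 98 for vmat2 (-0.31, interval -0.73 to 0.11). Neuronal markers had 239 against 249 for otpb (0.97, interval 0.71 to 1.23) and 241 against 312 for vmat2 (-0.65, interval -0.90 to -0.40). With TMM scaling these are the signs of the members. The vmat2 neuronal levels were 262 against 266 CPM, so library size scaling leaves almost no difference there. Skeletal muscle markers had 97 against 426 for otpb (-1.10) and 65 against 79 for vmat2 (-0.56). Their vmat2 levels were 70.8 against 67.3 CPM, so that direction depends on the scaling. Heart markers had 195 against 144 for otpb (1.47) and 1871 against 18 for vmat2 (6.42), which is 2040 CPM in the vmat2 GFP-positive library. Hatching gland markers at 36 h had 263911 reads against 473 (9.77, 11600 CPM in the GFP-positive library), and heart markers 29326 against 91 (8.98). At 48 h these were 100282 against 3988 (4.66) and 5146 against 356 (3.86). Catecholaminergic markers stood at 15.6 CPM against 2.67 at 36 h and 24.6 CPM against 5.2 at 48 h. Neuronal markers had log2 ratios of -0.32 and -1.02, and skeletal muscle markers 0.51 and 1.39. The 36 h skeletal muscle levels were 125 CPM in the GFP-positive and 147 CPM in the GFP-negative library, so that direction depends on the scaling. The part of these other cells in the members' ratios was not tested at any age.

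Likeness to a member was measured as the Pearson correlation of log2(TMM-scaled CPM + 1), centred within each assay, over the 8 libraries at 24, 36 and 48 h. Only shha had enough reads in both assays to be compared, with 5745 other genes. The 3 genes most like it were thoc6, of an mRNA export complex (r = 0.98), sepw2a, a selenoprotein gene (0.97), and brms1la (0.97). Thoc6 had 37 reads against 6 for otpb and 2 against 20 for vmat2. The 8 points share pairs, assays and depth, and the values are descriptions of these libraries.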

How the data were processed

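Per the file headers, the authors deposited whole-number counts of exon reads and RPKM values for the vmat2 libraries. For every experiment they also deposited a difference and a signed fold change of RPKM, recorded here as scores. The aligner is not given in the sources used here. Headers of the other 5 tables name no library, so 174 columns were not used. There the difference, the fold change and the exon length gave whole reads: in each library 100.0% of the nonzero values came out whole to within 0.02. The same steps returned the deposited counts of all 27829 vmat2 features with an exon length. Ratios were made with edgeR 4.0.16 (TMM, GFP-negative library as reference) in R 4.3.3, and DESeq2 1.42.0 gave alternative size factors. Intervals are exact (Clopper-Pearson for ratios, Poisson for levels) at 95% for independent reads and cover counting error only. NanoCAGE and amplified reads are not independent molecules, so the intervals are too narrow even for counting error. A library with 0 reads was put at 3 reads for bounds. Steps were tested on simulated data. Alternatives were library size scaling, DESeq2 size factors, a prior count of 0.5, no minimum, a minimum of 50 reads and 10 CPM, and, for the vmat2 experiment alone, unique reads. The members and the 8 gene lists were chosen with earlier results of these data known. Named from each list were the 4 genes with most reads and up to 6 genes past 4-fold for otpb or at 36 h; list and marker names were matched without regard to capitals.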

Additional observations from a re-analysis of the deposited data

Results flagged for a closer look

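The log2 ratio of GFP-positive over GFP-negative libraries had opposite signs in the otpb and vmat2 experiments for 3 of the 5 genes, with counting intervals on opposite sides of 0. The otpb ratio minus the vmat2 ratio was 6.47 for cmn, 5.39 for emilin3a and 3.53 for shha. Each experiment has 1 pair of libraries, so the difference between the experiments was not tested. It rests on the direction of the otpb table, taken from its heading and the vmat2 table. Had the otpb table been made the other way round, the differences would be -0.13, -1.39 and -0.34, and the signs would not be opposite; this alternative was added after the data were seen. With library size scaling the signs in each experiment did not change, with 3.73 for otpb and -2.63 for vmat2 (cmn), 3.80 and -1.57 (emilin3a), and 2.35 and -1.02 (shha).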

How the results depend on the processing

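Of 127 values recomputed under an alternative, 101 stayed within their counting interval (counts and shares within 1.5 times), and 26 did not. Of these 26, 21 came from library size scaling and 5 from the minimum. Of the 21, 6 changed sign. No paired analysis was possible because each group has 1 library. With library size scaling the log2 ratio was 3.73 for cmn for otpb, and -1.20 for shha and -0.51 for shhb at 36 h, whose sign changed. The share of genes at least 4-fold lower was 1.60% for vmat2 and 5.95% at 36 h, and the share at least 4-fold higher was 4.41% for otpb. Sums that changed sign were notochord (0.41), Hedgehog signalling (0.06) and Hedgehog targets (0.17) for vmat2 and Hedgehog signalling (0.19) for otpb. Others kept their sign and moved, for otpb to 1.07 (notochord), 1.13 (floor plate), 0.66 (Hedgehog targets), 1.16 (tail bud), 0.59 (elastic fibre genes) and 2.9 (hatching gland). For vmat2 they moved to -1.25 (floor plate), -0.65 (tail bud), 0.98 (elastic fibre genes) and 3.24 (hatching gland), and the ventral diencephalon list, whose interval includes 0, changed sign to 0.32. With no minimum 5.19% of genes were at least 4-fold higher for otpb and 5.75% at least 4-fold lower at 36 h, and 1 member was at least 4-fold lower at 36 h (ntla) and 1 at 48 h (emilin3a). With the stricter minimum the share at least 4-fold lower at 36 h was 0.959%. DESeq2 size factors and the smaller prior count moved none of these values outside its interval. Unique reads were tried only for the vmat2 ratios of cmn, emilin3a, shha and ntla, and moved none of them outside its interval. At 72 h 1 read is worth 18.9 CPM in the GFP-positive and 12.6 CPM in the GFP-negative library, above most member levels at 36 and 48 h, so the members could not be followed there.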

Other observations

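A feature named EMILIN3 (1 of 2), after the human gene, was not on any list and was singled out after its values were seen. It had 41 reads (82.8 CPM) against 1 (0.73 CPM) in the otpb experiment, a log2 ratio of 4.55 (interval 3.83 to 11.73), and 7 against 7 for vmat2. At 36 h it had 30 reads against 53 (-0.17, interval -0.87 to 0.50). At 48 h its 79 against 118 reads gave -0.56 (interval -1.0 to -0.14), where emilin3a had 1 against 13. Emilin1a, of the same family, had 0 reads against 16 for otpb and 11 against 22 for vmat2. Emilin1b had 34 against 35 for otpb (0.94, interval 0.26 to 1.71) and 106 against 43 for vmat2 (0.99, interval 0.50 to 1.57).

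Of the 4068 genes above the minimum in both 24 h experiments, 91 were at least 4-fold higher for otpb and 122 at least 4-fold lower for vmat2, and 10 were both. This comparison was added after the data were seen. The 10 include cmn, col11a2, thoc6 and stmn1b, a stathmin gene of neurons, with 83 reads against 18 for otpb and 20 against 78 for vmat2. The opposite pattern, at least 4-fold lower for otpb and higher for vmat2, was met by 35 genes. Each part of that pattern was also commoner. Over all genes above the minimum in each experiment, 7.37% were that far lower for otpb and 11.2% that far higher for vmat2. The shares for the first pattern were 2.64% higher for otpb and 3.47% lower for vmat2. The counts of 10 and 35 are therefore not compared.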
